A study of Mus musculus with 4 samples.

Results

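Mast cell proteases and receptors were examined in imiquimod (IMQ)-treated dorsal skin as a set of 9 genes chosen by symbol: *Mcpt4*, *Cma1*, *Tpsb2*, *Cpa3*, *Hdc*, *Kit*, *Fcer1a*, *Ms4a2* and *Mrgprb2*. All 9 were found among the 24346 gene symbols of the libraries, and all 9 passed the filter on low values, a mean of 0.1 FPKM, as did 15896 genes in all. FPKM is a gene's number of sequenced fragments, corrected for the length of its exons and for how many fragments its library had mapped, so levels of different genes can be compared per length. The animals were male C57BL/6 mice, 8 weeks old when the diet started. The Cont-IMQ group received a NASH diet, which is rich in fat, cholesterol, sucrose and bile salt, for 3 weeks, and the 7KC-IMQ group received the same diet with added 7-ketocholesterol (7KC), an oxidized form of cholesterol. Skin of both groups was then treated with 5% IMQ cream for 1 day, and no vehicle-treated skin entered the comparison. RNA was sequenced in 4 libraries, replicates 1 and 2 of each group, and values are given in that order. The comparison asks how mast cell transcripts differ between IMQ-treated skin of mice fed the diet with and without 7KC.

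Mast cells are tissue-resident immune cells that lie around the vessels, nerves and hair follicles of the dermis and store proteases, histamine and heparin in their granules. They survive on stem cell factor through the receptor tyrosine kinase Kit and release their granules when antigen crosslinks IgE on the high-affinity receptor, or when basic peptides and drugs engage Mrgprb2. Mast cells of mouse connective tissue such as skin contain Mcpt4, Cma1, Tpsb2 and Cpa3, while those of mucosa are marked by Mcpt1 and Mcpt2.

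The protease transcripts made up most of the summed FPKM of the set, and the paralogs that mark mucosal mast cells were at or near 0. The sum of *Mcpt4*, *Cma1*, *Tpsb2* and *Cpa3* was 104.1 and 100.3 FPKM in Cont-IMQ and 84.8 and 89.2 FPKM in 7KC-IMQ. Both 7KC-IMQ sums lay below both Cont-IMQ sums, and the group means were 102.2 ± 2.68 and 87.0 ± 3.11 FPKM (SD, n = 2). These 4 genes held between 89.2% and 92.8% of the summed FPKM of the 9 genes in every library. In mean FPKM over the 4 libraries, the order of the levels was *Mcpt4* (38.1), *Cma1* (24.3), *Tpsb2* (17.7), *Cpa3* (14.4), *Hdc* (5.15), *Kit* (1.63), *Fcer1a* (1.21), *Mrgprb2* (1.19) and *Ms4a2* (0.488). The ranges of *Mcpt4* and *Cma1* over the libraries did not overlap, nor did those of *Cpa3* and *Hdc*, of *Hdc* and *Kit* or of *Mrgprb2* and *Ms4a2*. The other neighbours in that order had overlapping ranges over the libraries. In bulk skin, fewer mast cells and less RNA per mast cell cannot be told apart.

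**Figure D1:**
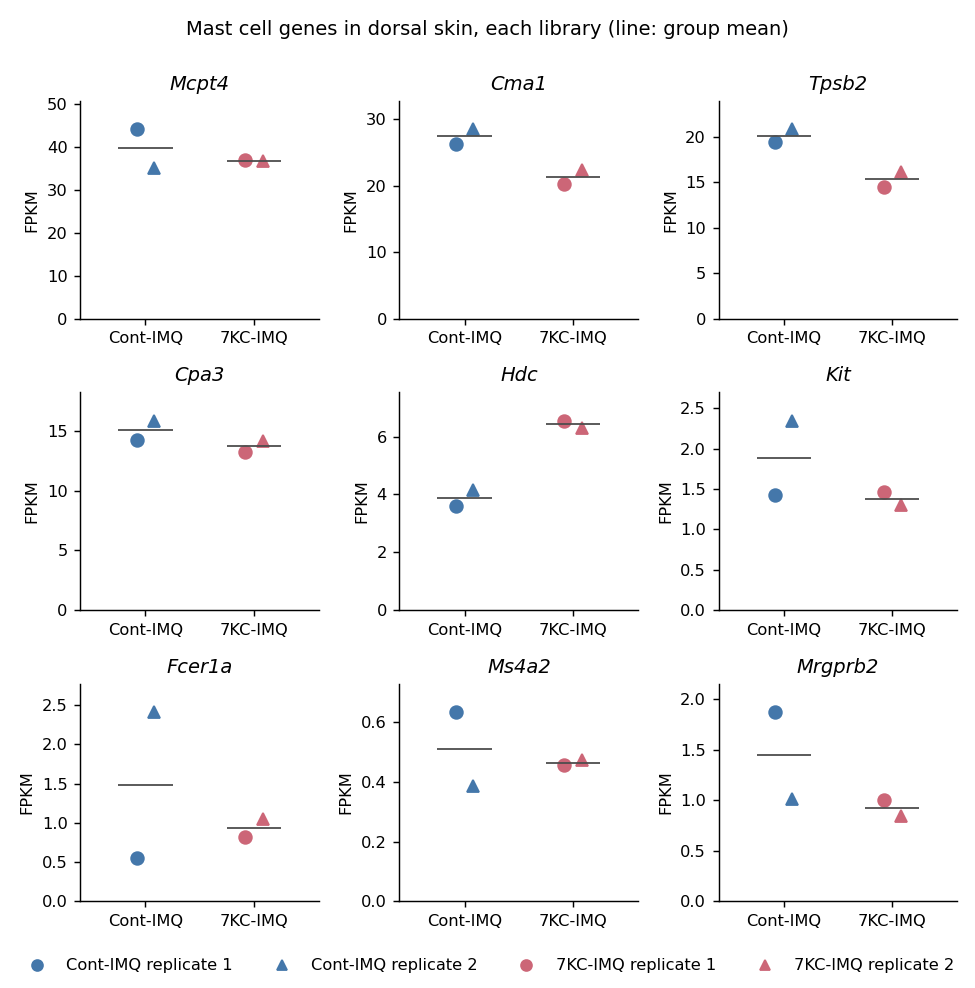
FPKM of the 9 mast cell genes (y axes, each from 0) in the Cont-IMQ and 7KC-IMQ groups (x axes), with 1 point per library, circles for replicate 1, triangles for replicate 2 and a line at the group mean. *Cma1*, *Tpsb2*, *Cpa3* and *Mrgprb2* lie lower in both 7KC-IMQ libraries, *Hdc* lies higher, and the groups overlap for *Mcpt4*, *Kit*, *Fcer1a* and *Ms4a2*.

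Among the 9 genes, 4 were lower and 1 was higher in 7KC-IMQ without overlap between the groups. Of all genes tested, 22.9% were lower and 23.9% were higher in this way. Among the mast cell genes, 3 were lower and 1 higher after quantile normalization (22.1% and 23.1% of all genes), and 6 and 1 after scaling to housekeeping genes (33.8% and 15.0%). A lone library is more often outside the other group, so without Cont-IMQ replicate 1 the counts of 6 lower and 3 higher stood beside 39.1% and 38.5% of all genes. Without Cont-IMQ replicate 2 they were 6 and 2, beside 38.6% and 38.8%. At an unadjusted p under 0.05 (limma), *Cma1* and *Tpsb2* were lower and *Hdc* was higher, that is 2 and 1 of the 9 genes. The calls of *Cma1* and *Tpsb2* were lost without Cont-IMQ replicate 2 and without 7KC-IMQ replicate 1, while that of *Hdc* was kept under all 13 alternatives to the main fit. Other calls appeared when 1 library was left out: *Kit* and *Fcer1a* were lower without Cont-IMQ replicate 1, and *Mcpt4* and *Mrgprb2* were lower without Cont-IMQ replicate 2. The lower calls among the 9 genes thus numbered 0 to 4 over the alternatives. The background for these calls, and for those of the gene lists below, is the share of all genes tested. Of all genes, 5.47% were lower and 7.5% higher by that criterion, 869 and 1192 genes. These numbers were 1141 and 1190 without Cont-IMQ replicate 1, 1059 and 1122 without Cont-IMQ replicate 2, 459 and 678 without 7KC-IMQ replicate 1, and 282 and 333 without 7KC-IMQ replicate 2. After rescaling to equal FPKM sums they were 1229 and 638, and after scaling to housekeeping genes 1446 and 632. No mast cell gene passed an adjusted p of 0.05 (limma, Benjamini-Hochberg), the lowest value being 0.352, and 0.00629% of all genes did, which is 1 gene of 15896. That gene was *Mir24-2*, a microRNA gene named here after its values were seen (limma, adjusted p = 3.8e-05). It had 549.2 and 554.9 FPKM in Cont-IMQ and was listed at 0 in both 7KC-IMQ libraries. Whether its 0 entries reflect absent RNA or unsuccessful estimation was not tested, so its difference is not read as a loss of expression. The number of genes at an adjusted p under 0.05 was 9 without Cont-IMQ replicate 1 and 5 without Cont-IMQ replicate 2, and none of the 9 mast cell genes passed in these fits. The median log2 difference was -0.26 over the mast cell genes and -0.0056 over all genes tested, and it was -0.16 over the mast cell genes without Cont-IMQ replicate 2. Differences are on the log2(FPKM + 1) scale throughout, on which low genes show less than their full change. With 2 libraries against 2, a two-sided exact permutation test has 0.333 as its smallest p. The p-values measure only the spread between these samples.

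**Figure D2:**
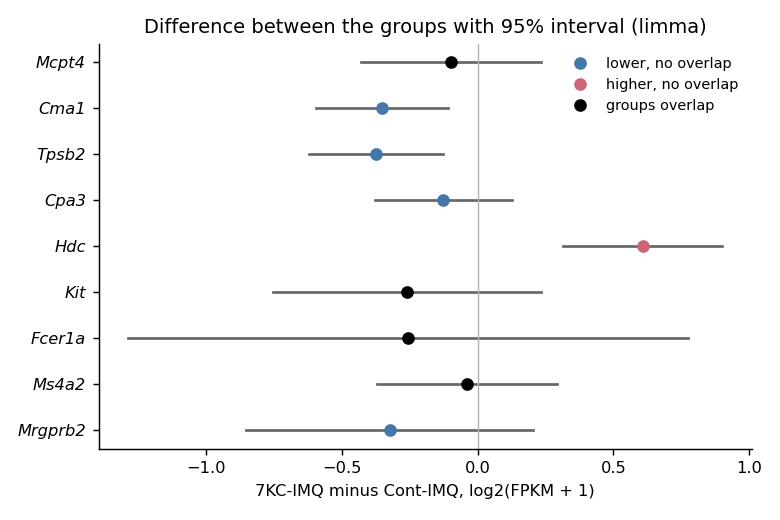
Difference of 7KC-IMQ minus Cont-IMQ in log2(FPKM + 1) (x axis) for each mast cell gene (y axis), with points at the limma estimate and bars for its 95% interval. The intervals of *Cma1* and *Tpsb2* lie below 0 and that of *Hdc* lies above 0, while *Fcer1a* has the widest interval, from -1.29 to 0.77.

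The chymases came first in level. *Mcpt4*, the main chymase of mouse connective tissue mast cells, which cleaves extracellular matrix proteins and cytokines, had 44.1 and 35.1 FPKM in Cont-IMQ and 36.8 and 36.6 FPKM in 7KC-IMQ. Cont-IMQ replicate 1 was the highest library and Cont-IMQ replicate 2 the lowest, so the groups overlapped. The log2 difference was -0.10 (SE 0.13; limma, adjusted p = 0.777), and it turned to 0.063 without Cont-IMQ replicate 1.

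*Cma1*, a chymase-family protease (mast cell protease 5) that has elastase activity in mice, had 26.3 and 28.5 FPKM in Cont-IMQ and 20.2 and 22.4 FPKM in 7KC-IMQ. Both 7KC-IMQ values were below both Cont-IMQ values. The group means were 27.4 ± 1.53 and 21.3 ± 1.54 FPKM (SD, n = 2), a ratio of 0.776. This amounted to a log2 difference of -0.35 (SE 0.092; 95% interval -0.59 to -0.11; limma, adjusted p = 0.356), and the direction was shared by both 7KC-IMQ libraries.

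*Tpsb2*, the tetrameric tryptase mast cell protease 6, which is stored bound to heparin, had 19.5 and 20.8 FPKM in Cont-IMQ and 14.5 and 16.1 FPKM in 7KC-IMQ. The 7KC-IMQ libraries were again the lower ones, without overlap. The means were 20.2 ± 0.986 and 15.3 ± 1.14 FPKM (SD, n = 2), a ratio of 0.760. On the log2 scale the difference was -0.37 (SE 0.093; 95% interval -0.62 to -0.13; limma, adjusted p = 0.356).

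*Cpa3*, a carboxypeptidase that trims C-terminal residues and degrades venom peptides and endothelin, had 14.2 and 15.9 FPKM in Cont-IMQ and 13.3 and 14.1 FPKM in 7KC-IMQ. The groups did not overlap, but Cont-IMQ replicate 1 and 7KC-IMQ replicate 2 were close to each other. Its log2 difference was -0.13 (SE 0.095; limma, adjusted p = 0.614), with -0.053 without Cont-IMQ replicate 2 and -0.20 without Cont-IMQ replicate 1.

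The proteases also differed in how they varied between replicates. *Cma1* was higher than *Tpsb2* in each library, with a ratio of FPKM of 1.35 and 1.37 in Cont-IMQ and 1.39 and 1.39 in 7KC-IMQ. Although these genes lie on chromosomes 14 and 17, their centred log2(FPKM + 1) profiles over the 4 libraries were the closest of the 36 pairs of mast cell genes, with a root mean square distance of 0.013. Among 13102 genes outside the set with a mean of 1 FPKM or more, 2 were closer to *Cma1* than *Tpsb2* was. *Mcpt4* lies 115.0 kb from *Cma1* in the chymase cluster of chromosome 14, and its distance to the *Cma1* profile was 0.21. The FPKM ratio of *Cma1* to *Mcpt4* ranged from 0.548 in 7KC-IMQ replicate 1 to 0.812 in Cont-IMQ replicate 2. *Mcpt4*, *Ms4a2* and *Mrgprb2* were highest in Cont-IMQ replicate 1. *Cma1*, *Tpsb2*, *Cpa3*, *Kit* and *Fcer1a* were highest in Cont-IMQ replicate 2. With 4 libraries these distances are descriptions. The genes outside the set whose profiles were closest to the mean profile of the 4 proteases were *Thap3* (0.012), *Rhobtb2* (0.012), *Tmem175* (0.012), *Rfesd* (0.015) and *Cttnbp2nl* (0.015), by root mean square distance over the 4 libraries.

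*Cma1* and *Hdc* had unadjusted calls in opposite directions, while *Mcpt4* and *Cpa3* had none. The sequences just upstream of a RefSeq start site of these 4 genes are shown. They are the 250 bases before the annotated start site (RefSeq, GRCm38.p6), each on the minus strand of the chromosome and written 5′ to 3′, at chr14:56062311-56062560 for *Mcpt4*, chr14:55944676-55944925 for *Cma1*, chr3:20242182-20242431 for *Cpa3* and chr2:126618679-126618928 for *Hdc*. Capitals mark GATAA, 1 form of the motif bound by GATA factors, or TTATC, the same letters on the other strand.
Mcpt4: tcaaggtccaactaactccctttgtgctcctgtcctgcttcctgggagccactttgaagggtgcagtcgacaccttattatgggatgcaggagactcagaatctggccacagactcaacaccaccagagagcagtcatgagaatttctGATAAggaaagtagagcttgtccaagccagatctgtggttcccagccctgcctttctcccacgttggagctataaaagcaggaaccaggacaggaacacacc
Cma1: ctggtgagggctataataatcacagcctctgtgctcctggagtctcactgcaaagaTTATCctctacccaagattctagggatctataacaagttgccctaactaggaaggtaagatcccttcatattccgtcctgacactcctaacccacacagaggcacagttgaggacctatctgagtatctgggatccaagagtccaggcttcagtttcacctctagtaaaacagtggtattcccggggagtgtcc
Cpa3: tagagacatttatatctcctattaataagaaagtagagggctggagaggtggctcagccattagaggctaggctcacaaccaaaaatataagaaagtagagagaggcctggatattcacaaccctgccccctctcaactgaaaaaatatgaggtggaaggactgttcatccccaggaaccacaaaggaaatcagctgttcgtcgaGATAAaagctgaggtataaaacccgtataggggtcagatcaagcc
Hdc: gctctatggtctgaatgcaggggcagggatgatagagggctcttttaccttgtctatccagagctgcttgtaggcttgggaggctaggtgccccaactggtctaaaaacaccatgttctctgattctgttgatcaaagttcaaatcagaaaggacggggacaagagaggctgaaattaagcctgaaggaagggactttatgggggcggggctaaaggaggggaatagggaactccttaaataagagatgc
Entries were matched for 8 of the 9 genes, all but *Tpsb2*. GATAA was found on either strand in 6 of these 8 genes. It was found in 22.6% of the 32851 promoters of the same length, of which a gene can have several. In the proteases the match was 97 bases upstream of the start site for *Mcpt4*, 189 for *Cma1* and 40 for *Cpa3*. *Fcer1a* and *Mrgprb2* had 1 match each and *Ms4a2* had 3, while the letters GATAA were not in the window of *Hdc* or in either window of *Kit*. Other forms of the motif were not searched or marked. GATAG is in the printed *Hdc* window, and CTATC, its letters on the other strand, is in the printed *Cma1* window. Of 2 other motifs searched, TATAAA was found in *Mcpt4*, *Cpa3* and *Fcer1a*, and in 12.4% of the promoters. CANNTG, with N for any base, was found in *Cma1*, *Cpa3*, *Fcer1a*, *Hdc* and *Mrgprb2*, and in 66.2% of the promoters. The *Hdc* window lies inside the span of that gene in the GENCODE M21 annotation, chr2:126593667-126619299. Bases before the *Hdc* start site of that annotation were not searched. A match is a description of the sequence, and binding was not measured. *Gata2*, a GATA factor needed by mast cells and named here after its values were seen, had 1.26 and 1.62 FPKM in Cont-IMQ and 1.20 and 1.62 FPKM in 7KC-IMQ, with overlapping groups.

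*Hdc*, the enzyme that makes histamine from histidine, went the other way. It had 3.61 and 4.15 FPKM in Cont-IMQ and 6.55 and 6.30 FPKM in 7KC-IMQ. Each 7KC-IMQ value exceeded each Cont-IMQ value, and the spread within each group was smaller than the gap between them. The means were 3.88 ± 0.385 and 6.43 ± 0.178 FPKM (SD, n = 2), a ratio of 1.66. The log2 difference was 0.61 (SE 0.11; 95% interval 0.32 to 0.90; limma, adjusted p = 0.352), and *Hdc* was at rank 150 by p among the 15896 genes. Set against the proteases, *Hdc* amounted to 3.47% and 4.14% of their summed FPKM in Cont-IMQ, and to 7.73% and 7.06% in 7KC-IMQ. By estimated reads, *Hdc* rested on 120 and 138 reads in Cont-IMQ and on 233 and 207 reads in 7KC-IMQ.

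Neutrophils also express *Hdc*, and most of their markers had a higher mean in 7KC-IMQ. Of 12 neutrophil genes, 11 were in the files and 9 were tested. At an unadjusted p under 0.05 (limma), 5 of the 9 were higher and 0 lower, beside 7.5% and 5.47% of all genes tested. None of the 9 passed the adjusted threshold, and the median log2 difference was 0.54. Under the alternatives 3 to 6 were higher and 0 to 1 lower. In mean, 8 of the 9 were higher, while *Elane* had 0.183 and 0.740 FPKM in Cont-IMQ and 0 and 0.279 FPKM in 7KC-IMQ, with a log2 difference of -0.34 and overlapping groups. The calprotectin subunits *S100a8* and *S100a9*, which inflamed epidermis also makes and of which *S100a8* was named after its values were seen, held at least 98.96% of the summed FPKM of the list in every library. Without them the sum was 18.9 and 22.1 FPKM in Cont-IMQ and 29.3 and 32.2 FPKM in 7KC-IMQ. *S100a9*, the most abundant gene, had 1293 and 1063 FPKM in Cont-IMQ and 3586 and 7010 FPKM in 7KC-IMQ. The chemokine receptor *Cxcr2*, named here after its values were seen, had 13.4 and 15.0 FPKM in Cont-IMQ and 20.2 and 23.0 FPKM in 7KC-IMQ. Granule genes on the list that were low are also named after their values were seen. *Mmp8* had 0.346 and 0.816 FPKM in Cont-IMQ and 1.08 and 1.49 FPKM in 7KC-IMQ, and *Camp* had 0.336 and 0 FPKM against 0.628 and 0.682 FPKM. Both were among the 5 genes called higher, while *Elane*, *Ltf*, *Mpo* and *Ngp* had no call or were not tested and were at most 0.740 FPKM in any library. The unadjusted call of *Camp* was kept under 8 of 12 alternatives and that of *Mmp8* under 7 of 12. The part of neutrophils or other cells in the *Hdc* difference was not tested.

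The genes that receive and remove histamine were few and low. Of 7 such genes, 4 were tested, 1 was higher at an unadjusted p under 0.05 (limma) and 0 were lower, and the median log2 difference was 0.02. The gene that was higher was *Slc22a3*, a transporter that takes up histamine and other amines, with 0.885 and 1.05 FPKM in Cont-IMQ and 1.65 and 1.34 FPKM in 7KC-IMQ, without overlap. Its log2 difference was 0.34 (limma, adjusted p = 0.376), and the unadjusted call was kept under only 4 of the 13 alternatives. *Hnmt*, which inactivates histamine by methylation, was the most abundant of the list, with 2.81 and 2.02 FPKM in Cont-IMQ and 2.38 and 1.93 FPKM in 7KC-IMQ. The groups overlapped for *Hnmt*.

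Receptor transcripts of the set were low, and each was highest in a Cont-IMQ library. This was replicate 2 for *Kit* and *Fcer1a* and replicate 1 for *Ms4a2* and *Mrgprb2*. *Kit*, the receptor for stem cell factor, had 1.42 and 2.35 FPKM in Cont-IMQ and 1.46 and 1.30 FPKM in 7KC-IMQ. Only Cont-IMQ replicate 2 stood above the rest, and the groups overlapped. The log2 difference was -0.26 (SE 0.19; limma, adjusted p = 0.603), and -0.026 without Cont-IMQ replicate 2. The gene of its ligand, *Kitl*, named here after its values were seen, had the same highest library, with 4.23 and 7.36 FPKM in Cont-IMQ and 4.60 and 3.99 FPKM in 7KC-IMQ.

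*Kit* is also expressed by melanocytes, which in mouse back skin sit in growing hair follicles, and markers of both were highest in the same library. Of 10 melanocyte genes, all 10 were tested, 0 were higher and 0 lower at an unadjusted p under 0.05 (limma), and the median log2 difference was -0.10. Their summed FPKM was 48.6 and 165.6 in Cont-IMQ and 92.9 and 79.1 in 7KC-IMQ. *Dct*, a melanin synthesis enzyme and the most abundant of them, had 16.7 and 51.7 FPKM in Cont-IMQ and 29.0 and 26.1 FPKM in 7KC-IMQ. The 16 hair follicle growth genes, all tested, had a median log2 difference of -0.13 with 0 higher and 0 lower at that threshold. Their sums were 128.4 and 1480 FPKM in Cont-IMQ and 446.2 and 392.9 FPKM in 7KC-IMQ. *Krt71*, an inner root sheath keratin and the most abundant of them, had 34.5 and 502.7 FPKM in Cont-IMQ and 135.5 and 111.8 FPKM in 7KC-IMQ. For both sums the Cont-IMQ libraries were the lowest and the highest, and the 7KC-IMQ libraries lay between them. Of the melanocyte genes, 1 was lower without overlap, *Sox10*, a transcription factor of melanocytes and Schwann cells named here after its values were seen, with 2.12 and 2.51 FPKM in Cont-IMQ and 2.08 and 1.42 FPKM in 7KC-IMQ. Without Cont-IMQ replicate 1, 8 melanocyte and 16 hair follicle genes were lower at the unadjusted threshold. Without Cont-IMQ replicate 2, 7 and 16 were higher, and the medians turned to 0.65 and 0.96. The part of melanocytes and hair follicles in the values of *Kit* was not tested.

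Of the IgE receptor genes, *Fcer1a* and *Ms4a2* were near the limit of the depth. The gamma chain gene *Fcer1g*, which other Fc receptors share and which is named here after its values were seen, had 163.3 and 193.5 FPKM in Cont-IMQ and 158.0 and 164.3 FPKM in 7KC-IMQ, with overlap. *Fcer1a*, the alpha chain that binds IgE, had 0.557 and 2.41 FPKM in Cont-IMQ and 0.819 and 1.05 FPKM in 7KC-IMQ. The Cont-IMQ libraries were the lowest and the highest of all 4. By the depth estimate this was 6 and 26 reads in Cont-IMQ and 9 and 11 reads in 7KC-IMQ. The exact 95% Poisson interval was 2.2 to 13.1 reads for the lowest library and 17.0 to 38.1 reads for the highest. Such intervals and the estimated reads cover counting error only. Between the groups the log2 difference was -0.26 (SE 0.39; limma, adjusted p = 0.812), and it turned to 0.31 without Cont-IMQ replicate 2.

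*Ms4a2*, the beta chain that amplifies the signal of the IgE receptor, had 0.635 and 0.386 FPKM in Cont-IMQ and 0.456 and 0.473 FPKM in 7KC-IMQ. The Cont-IMQ libraries again enclosed the 7KC-IMQ libraries. It rested on an estimated 5 to 9 reads per library, and the Poisson intervals of all libraries overlapped. Its log2 difference was -0.04 (SE 0.13; limma, adjusted p = 0.923), and it turned to 0.080 without Cont-IMQ replicate 1.

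*Mrgprb2*, the receptor for basic secretagogues that in mice is largely restricted to connective tissue mast cells, had 1.87 and 1.02 FPKM in Cont-IMQ and 1.01 and 0.845 FPKM in 7KC-IMQ. The groups did not overlap, but Cont-IMQ replicate 2 and 7KC-IMQ replicate 1 were nearly equal, and only Cont-IMQ replicate 1 stood apart. The estimated reads were 54 and 29 in Cont-IMQ and 31 and 24 in 7KC-IMQ. A log2 difference of -0.32 was found (SE 0.20; limma, adjusted p = 0.550), which was -0.068 without Cont-IMQ replicate 1. Its neighbour in the family, *Mrgprb1*, had 0.895 and 1.07 FPKM in Cont-IMQ and 0.897 and 0.594 FPKM in 7KC-IMQ, with overlap.

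Close paralogs of the proteases were at most 0.892 FPKM in any library. *Mcpt1* and *Mcpt9* were listed at 0 in all 4 libraries. *Mcpt2* was listed at 0 in 3 of them and at 0.0798 FPKM in 7KC-IMQ replicate 1. *Cma2* had 0.178 FPKM in Cont-IMQ replicate 2 and 0.268 FPKM in 7KC-IMQ replicate 2 and was listed at 0 in the others. *Tpsab1*, the other tryptase, had 0.294 and 0.892 FPKM in Cont-IMQ and 0.344 and 0.597 FPKM in 7KC-IMQ, so *Tpsb2* was at least 23.4 times as high in every library. Reads shared between genes were a small part, since at most 2.51% of the 75-base windows of a mast cell gene's transcripts also occurred in another gene, which was the case for *Mcpt4* with *Cma2*.

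Basophils share *Fcer1a*, *Ms4a2* and *Hdc* with mast cells. The 4 genes listed for basophils, not all of them restricted to these cells, were at most 0.761 FPKM in any library, beside at most 0.635 FPKM for *Ms4a2*. *Mcpt8*, the basophil protease, was listed at 0 in Cont-IMQ replicate 1 and had 0.105, 0.0969 and 0.631 FPKM in Cont-IMQ replicate 2 and 7KC-IMQ replicates 1 and 2. *Prss34*, named here after its values were seen, was at most 0.0654 FPKM. Of 4 basophil genes, 3 were tested, 0 were higher and 0 lower at an unadjusted p under 0.05 (limma), and the median log2 difference was -0.01. Their summed FPKM was 0.826 and 1.13 in Cont-IMQ and 0.780 and 1.25 in 7KC-IMQ. *Cd200r3*, which mast cells also express, was the most abundant of them with 0.761 and 0.693 FPKM in Cont-IMQ and 0.305 and 0.551 FPKM in 7KC-IMQ. Of 4 eosinophil genes, *Epx* and *Prg2*, named here after their values were seen, were listed at 0 in all libraries and 1 was tested, *Siglecf*, with 0.197 and 0.149 FPKM in Cont-IMQ and 0.0551 and 0.0597 FPKM in 7KC-IMQ.

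**Figure D3:**
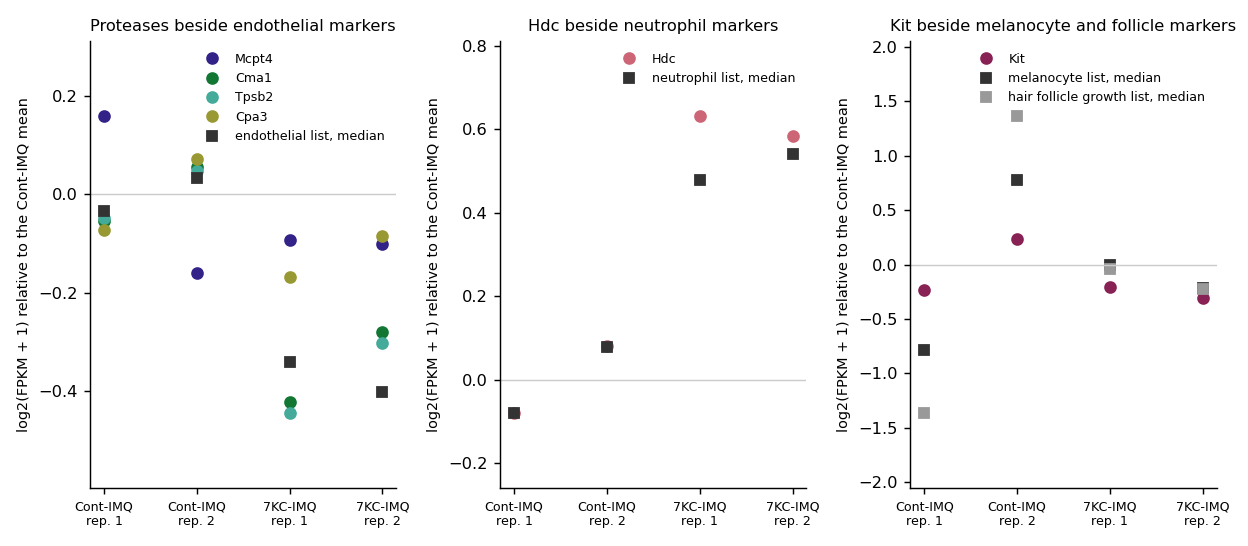
Level in each library (x axes) as log2(FPKM + 1) relative to the Cont-IMQ mean (y axes), for the proteases beside the median of the endothelial markers, for *Hdc* beside the median of the neutrophil markers, and for *Kit* beside the medians of the melanocyte and hair follicle markers. Circles are genes and squares are list medians. Cont-IMQ replicate 2 is highest for *Kit* and for both of its neighbouring lists, and the 7KC-IMQ libraries are the highest for *Hdc* and the neutrophil list.

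All 8 markers of blood vessels, around which mast cells lie, had a lower mean in 7KC-IMQ, as did *Cma1* and *Tpsb2*. The groups did not overlap for 7 of them, while *Cdh5* overlapped. Of all genes tested, 22.9% were lower without overlap. Of 8 endothelial genes, all tested, 0 were higher and 6 lower at an unadjusted p under 0.05 (limma), beside 7.5% and 5.47% of all genes tested. The median log2 difference of the 8 genes was -0.41. None passed the adjusted threshold, and 0 to 7 were lower by the unadjusted criterion under the alternatives, 0 being the fit without 7KC-IMQ replicate 2. Their summed FPKM was 106.0 and 113.0 in Cont-IMQ and 91.8 and 86.4 in 7KC-IMQ. *Plvap*, a component of fenestrated endothelium and the most abundant of them, had 43.7 and 45.9 FPKM in Cont-IMQ and 40.9 and 38.5 FPKM in 7KC-IMQ. The part of the tissue's composition in the protease values was not tested.

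Other genes of mast cell granules and mediators were measured in the same fit. Of 15 genes, 12 were tested, 0 were higher and 1 was lower at an unadjusted p under 0.05 (limma), and the median log2 difference was -0.07. The gene that was lower at that threshold was *Ltc4s*, which makes leukotriene C4, with 12.1 and 10.3 FPKM in Cont-IMQ and 8.57 and 5.44 FPKM in 7KC-IMQ (log2 difference -0.63; limma, adjusted p = 0.368). Its difference was -0.35 without 7KC-IMQ replicate 2, and the unadjusted call was lost there and under 3 other alternatives. *Alox5ap*, which presents arachidonic acid to 5-lipoxygenase and was the most abundant of the list, had 41.1 and 36.0 FPKM in Cont-IMQ and 34.7 and 32.3 FPKM in 7KC-IMQ. *Hpgds*, the hematopoietic prostaglandin D synthase, had 10.8 and 11.2 FPKM in Cont-IMQ and 10.6 and 9.46 FPKM in 7KC-IMQ. Of the 12 genes, 3 were lower and 0 higher without overlap, beside 22.9% and 23.9% of all genes tested. The 3 are the genes named here, since lack of overlap was part of the rule for naming. Macrophages and other myeloid cells express these genes too.

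Among 19 genes of Kit and IgE receptor signaling, 18 were tested, 1 was higher and 0 were lower at an unadjusted p under 0.05 (limma), and the median log2 difference was -0.11. *Lat*, an adaptor downstream of the IgE receptor and of the T cell receptor, had 3.17 and 2.05 FPKM in Cont-IMQ and 3.91 and 4.82 FPKM in 7KC-IMQ (log2 difference 0.58; limma, adjusted p = 0.365). This was 0.36 without Cont-IMQ replicate 2, where the unadjusted call was lost, as it was with the replicate block and without either 7KC-IMQ library. *Plcg2*, a phospholipase that triggers calcium release, had 11.0 and 9.51 FPKM in Cont-IMQ and 12.1 and 12.0 FPKM in 7KC-IMQ. Both genes were higher without overlap. *Rasgrp4*, a Ras activator found mainly in mast cells and other myeloid cells, was lower without overlap, with 3.16 and 2.67 FPKM in Cont-IMQ and 2.51 and 2.07 FPKM in 7KC-IMQ. *Fyn*, a Src-family kinase, was also lower without overlap, with 13.6 and 13.5 FPKM in Cont-IMQ and 13 and 10.8 FPKM in 7KC-IMQ. *Plcg2*, *Rasgrp4* and *Fyn* had no unadjusted call in the main fit. Of the 18 genes, 2 were higher and 5 lower without overlap, beside 23.9% and 22.9% of all genes tested. *Cd63*, a granule membrane protein of many cell types, was the most abundant with 258.4 and 241.3 FPKM in Cont-IMQ and 273.2 and 256.6 FPKM in 7KC-IMQ, with overlap.

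Of 7 transcription factors of mast cells, all tested, 0 were higher and 1 lower at an unadjusted p under 0.05 (limma). The median log2 difference was -0.02, and it turned to 0.088 without Cont-IMQ replicate 2, to 0.060 without 7KC-IMQ replicate 1 and to 0.054 after quantile normalization. The gene that was lower was *Mitf*, which mast cells and melanocytes both need, with 5.01 and 6.20 FPKM in Cont-IMQ and 4.09 and 3.65 FPKM in 7KC-IMQ (log2 difference -0.44; limma, adjusted p = 0.365), a call kept under 10 of the 13 alternatives. The groups did not overlap for *Mitf*. *Stat5b*, a signal transducer of cytokine receptors and the most abundant of the list, had 13.3 and 14.4 FPKM in Cont-IMQ and 12.0 and 12.2 FPKM in 7KC-IMQ. *Runx1*, a regulator of blood cell development, had 4.87 and 4.80 FPKM in Cont-IMQ and 5.04 and 5.72 FPKM in 7KC-IMQ and was higher without overlap.

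Of 9 growth factors and alarmins that act on mast cells, 7 were tested, 1 was higher and 0 were lower at an unadjusted p under 0.05 (limma), and the median log2 difference was -0.01. *Il33*, an alarmin of keratinocytes and stromal cells that activates mast cells, had 40.1 and 32.3 FPKM in Cont-IMQ and 52.3 and 81.8 FPKM in 7KC-IMQ. Both 7KC-IMQ libraries were higher, 7KC-IMQ replicate 2 the most (log2 difference 0.84; limma, adjusted p = 0.356). Without that library the difference was 0.53, and the unadjusted call was lost there and without Cont-IMQ replicate 2. The other 2 genes, *Il3* and *Il9*, named here after their values were seen, were listed at 0 in all libraries.

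**Figure D4:**
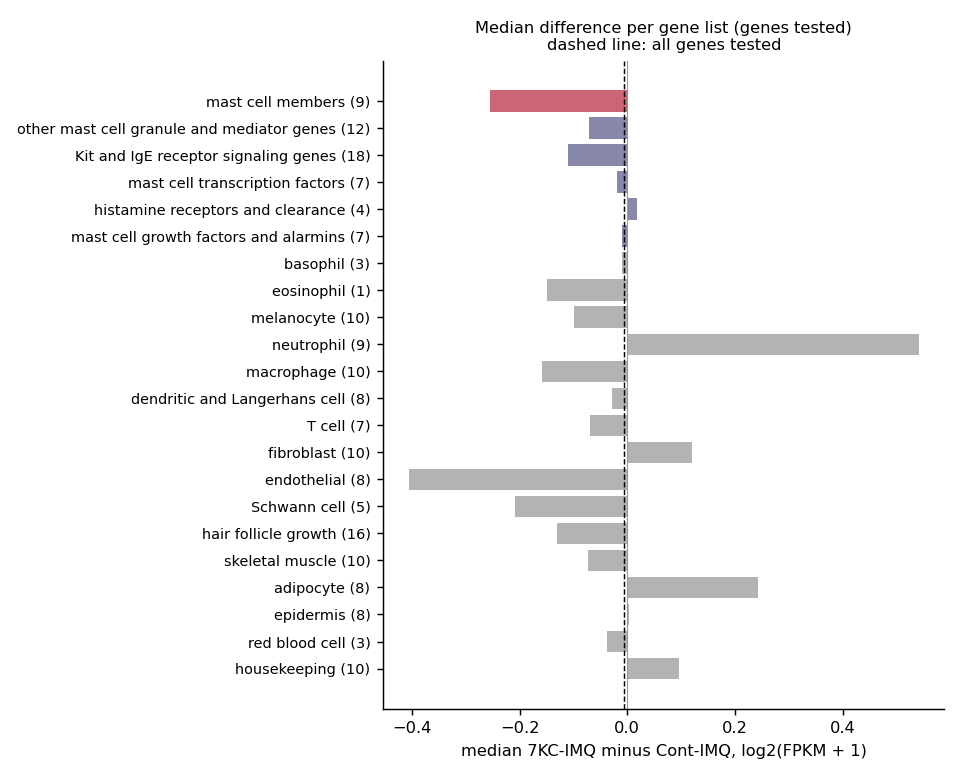
Median difference of 7KC-IMQ minus Cont-IMQ in log2(FPKM + 1) (x axis) for the mast cell genes and 21 other gene lists (y axis, genes tested in brackets), with a dashed line at the median of all genes tested. The mast cell genes lie at -0.26, the endothelial list at -0.41 and the neutrophil list at 0.54.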

How the data were processed

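Dorsal skin RNA (stranded mRNA libraries, 75-base single-end reads) was mapped by the authors to mm10, and the authors deposited FPKM values per gene symbol, one table per library. The submitters' processing notes name TopHat2 2.1.1, Bowtie2 2.2.8, SAMtools 0.1.18 and Cuffdiff 2.2.1. A deposited value of 0 can be a failed estimate, since *Rpl26*, named after its values were seen, was listed at 0 in Cont-IMQ replicate 2. Between 7185 and 7388 symbols were listed at 0.

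The values were used as deposited and transformed to log2(FPKM + 1). The 15896 genes whose mean over the libraries reached 0.1 FPKM were compared by limma 3.58.1 (R 4.3.3) with a mean-variance trend and Benjamini-Hochberg adjustment over all of them, after a test on simulated data. Groups of replicates came from the sample labels, which do not say whether libraries came from separate mice. Depth was estimated from genes with 1 annotated transcript (GENCODE M21) as 15220000 and 15130000 reads in Cont-IMQ and 16220000 and 15000000 reads in 7KC-IMQ. With these depths 74.4% to 76.6% of low values came within 0.1 of a whole read (20% by chance).

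The mast cell genes and the 21 other lists were chosen with earlier results of these data known. Named were all 9 genes, their close paralogs, in each mast cell list the most abundant gene and up to 4 genes of at least 1 FPKM with the largest difference without overlap, in the other lists the most abundant gene, any gene past the adjusted threshold, and the 5 genes of at least 1 FPKM nearest in profile to the 4 proteases. Other named genes are marked as such. Python 3.11.15, pandas 2.3.3, NumPy 2.4.6, SciPy 1.17.1 and matplotlib 3.10.9 were also used. Alternatives changed the pseudocount to 0.1, the filter to 1 FPKM or none, and the scaling, or used no variance trend, a replicate block, or all libraries but 1.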

Additional observations from a re-analysis of the deposited data

How the results depend on the processing

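*Cma1*, *Tpsb2*, *Cpa3*, *Kit* and *Mrgprb2* were lower and *Hdc* was higher in 7KC-IMQ under each of 13 alternatives. Of these, 4 (both filters, no variance trend and the replicate block) leave the estimates unchanged by construction, and median ratio scaling moved none by more than 0.00060, so they bear on p-values only. No mast cell gene passed an adjusted p of 0.05 (limma) under any alternative, the lowest being 0.293. Leaving out each library in turn, where a lone library is assumed to vary like the other group, gave log2 differences of -0.26 to 0.063 for *Mcpt4*, -0.42 to -0.28 for *Cma1*, -0.45 to -0.30 for *Tpsb2*, -0.20 to -0.053 for *Cpa3*, -0.82 to 0.31 for *Fcer1a*, -0.16 to 0.080 for *Ms4a2*, -0.49 to -0.026 for *Kit*, -0.58 to -0.068 for *Mrgprb2* and 0.53 to 0.69 for *Hdc*. The unadjusted p stayed under 0.05 (limma) in 11 of the 13 alternatives for *Cma1*, *Tpsb2* and *Il33*, in 13 for *Hdc*, 10 for *Mitf* and *Cd3g*, 9 for *Ltc4s* and *Lat* and 4 for *Slc22a3*. It fell under 0.05 only without Cont-IMQ replicate 1 for *Kit* and *Fcer1a* and only without Cont-IMQ replicate 2 for *Mcpt4* and *Mrgprb2*, and under at least 1 alternative for 10 of 18 other genes named without overlap and above it in the main fit. Of 21 other lists, 5 had a median that kept its sign throughout, the neutrophil (0.45 to 1.09), endothelial (-0.50 to -0.34), eosinophil, Schwann cell and signaling lists, and 16 turned under at least 1 alternative. Genes higher and lower at the unadjusted threshold reached 2 and 2 in the signaling list, 0 and 2 in the granule list, 1 and 2 among growth factors and alarmins, and 1 and 1 in the basophil list. Leaving out each library in turn, the median of the mast cell genes was -0.21 to -0.16, those higher and lower without overlap numbered 1 to 3 and 4 to 6 (33.3% to 38.8% and 33.5% to 39.1% of all genes), and the genes past the adjusted threshold numbered 1 to 9. Genes higher at an unadjusted p under 0.05 numbered 333 to 1190 and lower ones 282 to 1141, against 1192 and 869 with all libraries. The median was -0.32 with a pseudocount of 0.1 and -0.19 after quantile normalization, and 2 genes passed the adjusted threshold with that pseudocount. With a filter at a mean FPKM of 1, *Ms4a2* was not tested. Scalings chosen after seeing the data gave 638 higher and 1229 lower genes (34.2% higher, against 57.8%) for equal FPKM sums, and 632 higher and 1446 lower (30.4% higher) for housekeeping genes, with a median over all genes of -0.066 and -0.064. *B2m* turned to -0.10 after quantile normalization and to -6.5e-04 for equal sums. With the replicate block, 978 genes were higher and 776 lower; replicate differences of the groups had a correlation of 0.0651 over genes, and nothing says that the numbers pair the samples. The cause of these shifts was not tested. The main limits are 2 libraries per group, FPKM in place of counts, estimated depth, and at most 26 reads per library for *Fcer1a* and *Ms4a2*.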

Other observations

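Lists of other skin cells and tissues were measured with the same fit, and none of their genes passed an adjusted p of 0.05 (limma). All but the Schwann cell list had a median that turned sign under at least 1 alternative, and ranges in brackets are those over the alternatives. The 10 macrophage genes, all tested, had a median log2 difference of -0.16 (-0.26 to 0.014), with 0 higher and 1 lower at an unadjusted p under 0.05, and 4 lower without Cont-IMQ replicate 1. *C1qb*, a complement subunit and the most abundant of them, had 213.6 and 272.5 FPKM in Cont-IMQ and 210.2 and 231.7 FPKM in 7KC-IMQ. The 8 dendritic and Langerhans cell genes had a median of -0.03 (-0.19 to 0.17) with 0 higher and 0 lower, and *Cd74*, the invariant chain of class II molecules, had 533.5 and 370.6 FPKM in Cont-IMQ and 539.9 and 390.7 FPKM in 7KC-IMQ. Of 8 T cell genes, 7 were tested, 0 were higher and 2 lower (0 to 2 over the alternatives), and the median was -0.07 (-0.38 to 0.033). *Cd3g*, a chain of the T cell receptor complex, had 10.1 and 9.61 FPKM in Cont-IMQ and 7.62 and 5.59 FPKM in 7KC-IMQ, without overlap.

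The 10 fibroblast genes had a median of 0.12 (-0.12 to 0.28), with 0 higher and 1 lower at an unadjusted p under 0.05 (limma), and 4 higher and 2 lower without Cont-IMQ replicate 1. *Dcn*, a matrix proteoglycan, had 1157 and 1056 FPKM in Cont-IMQ and 970.4 and 911.2 FPKM in 7KC-IMQ. The 5 Schwann cell genes had a median of -0.21 (-0.35 to -0.068) with 0 higher and 0 lower, and *Mbp*, a myelin protein, had 27.1 and 25.7 FPKM in Cont-IMQ and 25.8 and 24.1 FPKM in 7KC-IMQ. The 10 skeletal muscle genes had a median of -0.07 (-0.25 to 0.045) with 1 higher and 2 lower (0 to 3 lower over the alternatives), and *Acta1*, skeletal actin, had 2848 and 3133 FPKM in Cont-IMQ and 2106 and 2583 FPKM in 7KC-IMQ. The 8 adipocyte genes had a median of 0.24 (-0.016 to 0.42) with 2 higher and 0 lower (0 to 3 higher over the alternatives), and *Fabp4*, a fatty acid carrier, had 831.4 and 1200 FPKM in Cont-IMQ and 1158 and 762.5 FPKM in 7KC-IMQ. The 8 epidermis genes had a median of 0.0038 (-0.12 to 0.18) with 1 higher and 1 lower, and *Krt10*, a keratin of suprabasal cells, had 8444 and 4597 FPKM in Cont-IMQ and 5283 and 5553 FPKM in 7KC-IMQ. Of 5 red blood cell genes, 3 were tested with a median of -0.04 (-0.70 to 0.15), 0 higher and 0 lower, and *Hba-a1*, an alpha globin, had 18.2 and 6.60 FPKM in Cont-IMQ and 6.46 and 25.3 FPKM in 7KC-IMQ. The 10 housekeeping genes had a median of 0.10 (-0.0010 to 0.11) with 0 higher and 0 lower, and *B2m*, the class I light chain, had 3223 and 3071 FPKM in Cont-IMQ and 3415 and 3245 FPKM in 7KC-IMQ.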
